A study of Mus musculus with 6 samples.

Results

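The genes described here are those that encode the proteins of the cytoplasmic ribosome. They were taken as the protein-coding rows whose symbol is Rpl or Rps followed by a digit and an optional A, X, L or suffix letter, or Rplp0, Rplp1, Rplp2 or Rpsa, leaving out the Rps6k kinases. This gave 81 of the 54532 genes in the table, 50 of the large subunit and 31 of the small subunit. Another 13 protein-coding genes with Rpl or Rps names fall outside that spelling, among them Rps3a1, Rpl7l1, Rpl22l1 and Rps27rt, and were not counted as members. RNA was sequenced from mouse pancreatic buds taken at E12.5 and grown for 2 days in M199 medium with 10% fetal bovine serum and 0.1% DMSO. The 3 control libraries had DMSO alone, and the 3 TBZ libraries also had 0.1 µM TBZ throughout, the usual abbreviation of tetrabenazine, an inhibitor of the vesicular monoamine transporter VMAT2. The labels give no strain, no genotype and no number of buds per library, and do not say whether the libraries came from separate litters or cultures, so the p-values measure the spread between these libraries, which may be technical.

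A ribosome holds one copy of nearly every ribosomal protein, so the genes are transcribed at high and similar rates and their messages are among the most abundant in any growing cell. Most of these messages start with a cytosine followed by a run of pyrimidines, the 5′ terminal oligopyrimidine tract (TOP), through which LARP1 and the kinase complex mTORC1 set how much of the message is translated. How much of a message is translated is not read by an mRNA count. In the embryonic pancreas the acinar precursors build up a large capacity for protein synthesis as they begin to make digestive enzymes.

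The starts of several members are printed because this run is the sequence that the family is known by. Each line has 10 bases before the RefSeq transcription start (GRCm38.p6) and 20 from it, 5′ to 3′ on the gene's strand, and capitals mark the unbroken run of C and T that begins with a C at the start. Rplp0 and Rpsa, which have no such run at the RefSeq start, follow for contrast.
Rpl15 (chr14:18270967-18270996, minus strand): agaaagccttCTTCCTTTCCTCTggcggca
Rpl28 (chr7:4792955-4792984, plus strand): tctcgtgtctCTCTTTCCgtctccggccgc
Rpl35 (chr2:39005112-39005141, minus strand): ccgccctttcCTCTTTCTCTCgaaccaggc
Rpl38 (chr11:114668570-114668599, plus strand): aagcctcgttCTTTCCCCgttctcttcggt
Rps6 (chr4:86857348-86857377, minus strand): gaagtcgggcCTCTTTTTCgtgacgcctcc
Rps10 (chr17:27635225-27635254, minus strand): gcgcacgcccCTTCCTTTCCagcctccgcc
Rps27 (chr3:90213629-90213658, minus strand): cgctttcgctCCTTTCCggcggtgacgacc
Rplp0 (chr5:115559457-115559486, plus strand): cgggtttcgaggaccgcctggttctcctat
Rpsa (chr9:120127756-120127785, plus strand): ttatttaaggacgtcatttccggccgcccg
RefSeq's promoter table held 61 of the 81 members. A run of at least 5 bases of this kind lay at an annotated start of 13 of the 61 members (21.3%) and of 3.01% of all 27025 genes in the table. In Rpl15 the run is 13 bases long, in Rpl35 11 and in Rps10 10. An annotated start that is off by a few bases would hide a run, so its absence here says only that these letters are not at that position.

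Within the 250 bases before and 50 after the start, the letters ACTTCCG, a core of ETS-family sites, were found on either strand in 36.1% of the 61 members and in 7.20% of all genes. The YY1-type letters GCCATNTT were found on either strand in 18.0% of members against 6.96% of all genes. The TATA-box letters TATAAA were found on either strand in 9.84% of members against 15.7% of all genes. These letter matches are descriptions and do not show that a factor binds.

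Libraries held 35825033 to 50620936 counted reads. In the whole series 34 of 18226 tested genes changed in TBZ (edgeR quasi-likelihood test, Benjamini-Hochberg adjusted p under 0.05), 28 up and 6 down. The markers of the labelled tissue were present: all 12 pancreatic epithelium markers were detected in every library, and Pdx1 measured 56.8, 46.9 and 39.8 CPM (reads per 1000000 counted, with libraries scaled by edgeR's TMM factors) in control libraries 1 to 3 and 61.8, 62.3 and 64.9 in TBZ. The summed markers of some cell types did not overlap between the groups, and those of others did. All 13 acinar markers lay above 0 and 8 of them rose, with a summed level of 5423 to 6434 CPM in control and 8153 to 9817 in TBZ. The summed pancreatic epithelium markers were 2945 to 3031 CPM in control and 3422 to 3789 in TBZ. Of the 12, 11 lay above 0 and 1 rose. Cpa1 is in both the acinar and the epithelium list, so the 2 sums are not independent. None of the markers of these 2 lists was at 0 in any library. Summed endothelial markers were 539 to 542 CPM in control and 548 to 586 in TBZ, with 9 of 10 above 0. Erythroid markers summed to 374 to 431 CPM in control and 312 to 385 in TBZ, with overlap and 8 of 10 below 0. Stomach markers summed to 105 to 176 CPM in control and 73.7 to 119 in TBZ, with overlap. Tff1 was at 0 in all libraries, and 4 of 7 tested stomach markers lay below 0. Mesenchyme markers (7310 to 8464 and 7500 to 8575 CPM, 5 above and 5 below 0) and macrophage markers (448 to 560 and 429 to 552 CPM, 8 of 10 below 0) overlapped between the groups. No marker of these 5 lists passed the edgeR threshold. The part of these marker differences in the ribosomal protein values was not tested. In bulk tissue, fewer cells of a type and less RNA per cell cannot be told apart.

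The share of the libraries taken by ribosomal protein messages did not separate the groups. The members held 5.63%, 5.40% and 5.54% of all counts in control libraries 1 to 3 and 5.46%, 5.46% and 5.53% in TBZ libraries 1 to 3. The TBZ values lie inside the control range. The means were 5.52% ± 0.117 (SD, n = 3) in control and 5.48% ± 0.044 (SD, n = 3) in TBZ. Large-subunit genes held 3.17 to 3.29% of counts in control and 3.20 to 3.25% in TBZ, and small-subunit genes held 2.23 to 2.34% and 2.23 to 2.28%.

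No ribosomal protein gene changed past the threshold. Of the 81 members, 78 passed the filter on low counts. None of the 78 had an edgeR adjusted p under 0.05, beside 0.187% of all tested genes, and 1 of them, Rps10, had an unadjusted p under 0.05, beside 9.61% of all genes. The fold changes lay on both sides of 0, 44 above and 34 below, with a median log2 fold change (TBZ over control) of 0.01 and an interquartile range from -0.02 to 0.04. All tested genes had a median of 0.00, and the 2478 other genes at 100 CPM or more a median of 0.02. By subunit, 30 of 47 large-subunit genes lay above 0 with a median of 0.01, and 14 of 31 small-subunit genes with a median of -0.005.

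The direction of so small a shift turned with the scaling and with 1 control library left out. With library totals in place of TMM, 29 of 78 members lay above 0 with a median of -0.01, where the median of all genes moved to -0.02. Without control library 2, 33 members lay above 0 with a median of -0.01. Without control library 1, 56 did with a median of 0.03, on the same side as with all libraries, and without control library 3, 43 did. A p above the threshold does not show that values are equal, but the intervals bound the size of a change. For 73 of 78 members the 95% interval of the fold change lay within 1.25-fold in both directions, against 52.7% of all tested genes and 2263 of the 2478 other genes at 100 CPM or more. The exceptions were Rpl17, Rpl24, Rpl36al, Rps10 and Rps27a, which are described below with their loci.

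**Figure D1:**
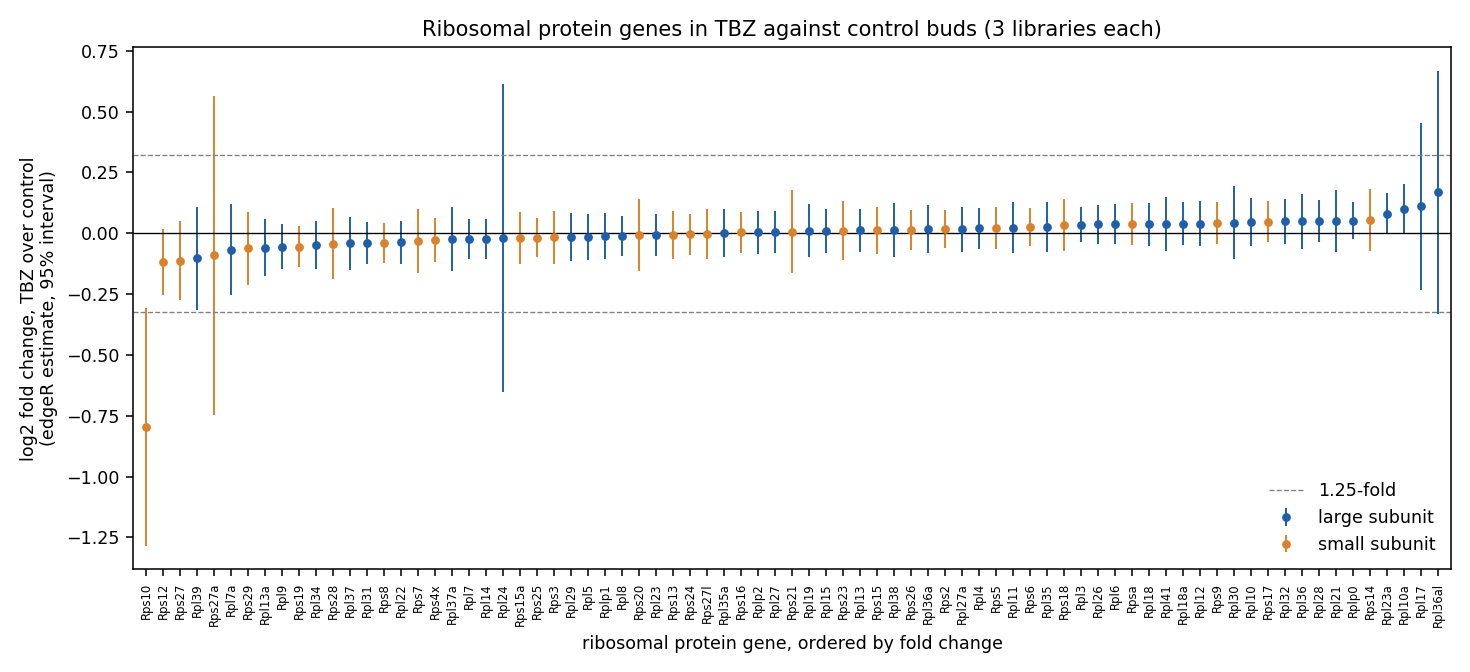
Log2 fold change of TBZ over control (y axis) for tested ribosomal protein genes, ordered along the x axis by value; points are edgeR estimates, bars 95% intervals from 3 libraries a group, and dashed lines mark 1.25-fold. For all but 5 of the genes shown the bar stays between the dashed lines, and Rps10 lies lowest at -0.80.

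The ribosomal stalk, which recruits elongation factors, is made by Rplp0, Rplp1 and Rplp2. Rplp0, the base of the stalk, measured 2370, 2303 and 2321 CPM in control libraries 1 to 3 and 2444, 2356 and 2441 in TBZ. These groups overlap, and the log2 fold change was 0.05 ± 0.03 (SE; edgeR adjusted p = 0.678). Rplp1 measured 1241, 1197 and 1141 CPM in control and 1217, 1154 and 1179 in TBZ, so its groups overlap too. Rplp2 was at 0.00 ± 0.04 on the log2 scale.

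Of the large-subunit core proteins, Rpl3, which reaches into the peptidyl transferase centre, measured 1322, 1321 and 1308 CPM in control and 1347, 1349 and 1353 in TBZ. All 3 TBZ libraries lay above all controls, yet the log2 fold change was 0.03 ± 0.03 (SE; edgeR adjusted p = 0.770). Rpl10, which joins the large subunit late in its assembly, measured 1108, 1197 and 1225 CPM in control and 1214, 1197 and 1231 in TBZ. Rpl5 and Rpl11, which with 5S rRNA form the particle that binds MDM2 and stabilises p53, had log2 fold changes of -0.02 ± 0.04 and 0.02 ± 0.05 (SE). Rpl22, Rpl36a and Rpl38 lay between -0.04 and 0.02. Rpl38 is the gene mutated in the Tail-short mouse, whose axial skeleton is misshapen. Rpl39, at the wall of the exit tunnel, measured 476, 376 and 361 CPM in control and 389, 385 and 355 in TBZ, so that control library 1 alone was high (log2 fold change -0.10 ± 0.09 SE).

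The largest positive estimates in the large subunit were those of Rpl36al (0.17 ± 0.22 SE), Rpl17 (0.11 ± 0.15), Rpl10a (0.10 ± 0.04) and Rpl23a (0.08 ± 0.04). Rpl23a, which lies at the exit of the tunnel and contacts the signal recognition particle, measured 441, 422 and 435 CPM in control and 466, 455 and 452 in TBZ. Its groups do not overlap, and its edgeR adjusted p was 0.544. Rpl10a, part of the L1 stalk, measured 769, 706 and 735 CPM in control and 794, 761 and 812 in TBZ, where TBZ library 2 lies below control library 1.

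Among small-subunit genes, Rpsa, mutated in isolated congenital asplenia, measured 1834, 1702 and 1724 CPM in control and 1808, 1793 and 1794 in TBZ. The TBZ libraries lie inside the control range. Rps6, the protein phosphorylated by S6 kinase, had a log2 fold change of 0.02 ± 0.04, Rps3, at the mRNA entry, -0.02 ± 0.05, Rps4x -0.03 ± 0.04 and Rps14 0.05 ± 0.06 (SE). Rps19, the gene most often mutated in Diamond-Blackfan anaemia, measured 663, 655 and 646.3 CPM in control and 619, 625 and 646.1 in TBZ. All 3 TBZ values fall below the lowest control, the closest only narrowly, and the log2 fold change was -0.06 ± 0.04 (SE; edgeR adjusted p = 0.673).

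Rps12, Rps27 and Rps29 had negative estimates. Rps12 measured 411, 458 and 389 CPM in control and 383, 376 and 400 in TBZ (log2 fold change -0.12 ± 0.06 SE; edgeR adjusted p = 0.574). Rps27 measured 507, 456 and 423 CPM in control and 448, 440 and 394 in TBZ, and Rps29 403, 363 and 332 in control and 340, 350 and 364 in TBZ. In all 3 genes the groups overlap, and the highest library was a control. Counting every member whose groups do not overlap gives 6 of 78, beside 15.5% of all tested genes. Among them are Rpl3, Rpl23a and Rpl26 with TBZ above, and Rps10 and Rps19 with TBZ below.

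Control library 1 stood highest for most members. Of the 78 tested members 43 had their highest CPM there, where 13.8% of all tested genes did, and 30 had their lowest in control library 2. Relative to each gene's mean over the controls, the median member was at 0.05, -0.03 and -0.01 on the log2 scale in control libraries 1 to 3 and at 0.01, -0.01 and 0.01 in TBZ libraries 1 to 3. The spread among the control libraries thus exceeds the difference between the groups. Against the mean of the other control libraries, control library 1 was higher for 63 of 78 members, with a median log2 difference of 0.07. Of the 2478 other genes at 100 CPM or more it was higher for 1332, with a median of 0.01. Among these, 27 were protein-coding with at most 1000 deposited bases. It was higher for 17 of the 27, with a median of 0.03. This pattern was noticed after the values were seen, and its source was not tested. Across the 78 genes, which share libraries and are not independent replicates, Pearson's r of the difference with mRNA length was 0.06 and Spearman's rho -0.19. Without Rpl13a, Rpl24, Rpl36al, Rps10, Rpl17 and Rps27a, whose loci are described below, r was 0.006 and rho -0.25 over 72 genes. Among these 72, the 28 with an mRNA of at most 600 bases had a median difference of 0.09 with 25 above 0, and the 44 with a longer one 0.06 with 36 above 0.

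**Figure D2:**
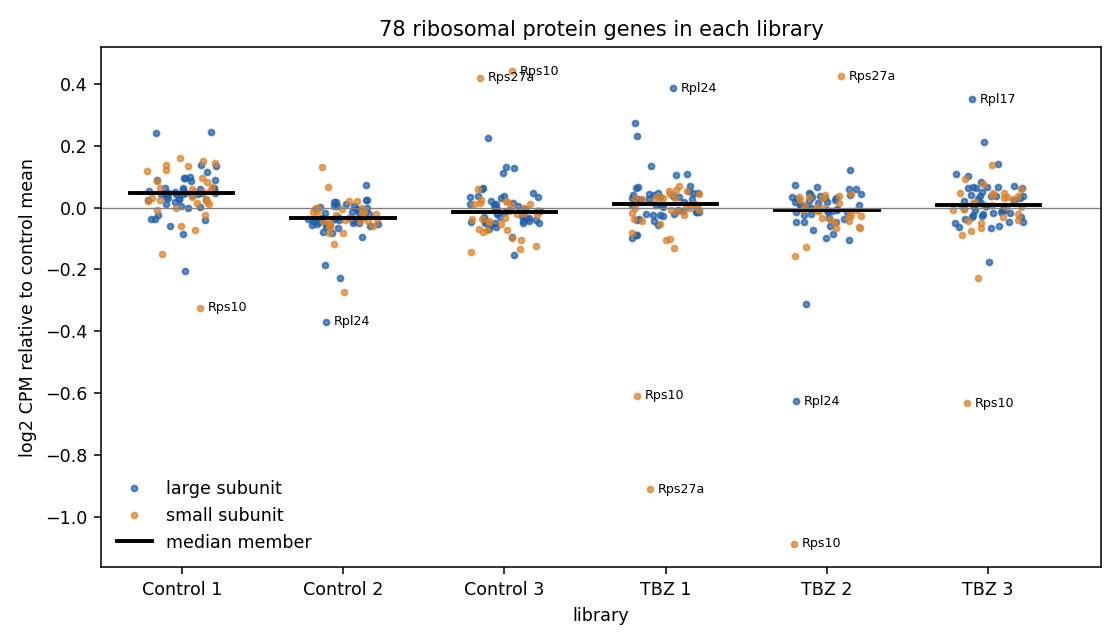
Log2 CPM of the 78 tested members in each library relative to the gene's mean over the 3 control libraries (y axis), with libraries along the x axis; each point is a gene and the black bar the median. Control 1 has the highest median, at 0.05, and the genes named in the plot depart from their control mean by more than the rest.

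Most members varied little between libraries of the same group. The coefficient of variation within groups had a median of 3.34% over the 78 members, 3.73% over the other genes at 100 CPM or more and 7.60% over all tested genes. Over 10% were 6 of the 78 members, beside 198 of the 2478 other genes at 100 CPM or more, a similar share. The 6 were Rpl17, Rpl24, Rpl36al, Rpl39, Rps10 and Rps27a. Rpl39 was high in control library 1 alone, as given above. The loci of the other 5 were examined after their values were seen.

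Rps10 had the largest estimate of all members. The gene, at chr17:27630418-27636669 on the minus strand of mm10, measured 4.37, 5.05 and 7.44 CPM in control libraries 1 to 3 and 3.59, 2.58 and 3.53 in TBZ. All TBZ libraries lay below all controls, with 5.62 ± 1.61 CPM (SD, n = 3) in control and 3.23 ± 0.569 in TBZ. The log2 fold change was -0.80 ± 0.22 (SE; edgeR adjusted p = 0.256). Without control library 3, the highest, it was -0.54. Rps10 passed the threshold in the authors' deposited table, with an adjusted p of 0.026, where 0.767% of the 28930 genes with a value did. It also passed with DESeq2 (adjusted p = 0.026, beside 1.43% of genes) and with edgeR without the low-count filter (adjusted p = 0.0043, beside 1.42% of genes). In each of these 3 it was the only member that did. The authors' values and the DESeq2 fit are not separate evidence. In both, the log2 fold change of Rps10 was -0.798 and 222 genes were called.

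Those few reads are a small part of the reads with Rps10 sequence. The processed pseudogene Rps10-ps2 on chromosome 16, an intronless copy of the message, held 179 to 208 CPM, 44.4 times the mean of Rps10. Its values were 208, 179 and 190 CPM in control and 197, 199 and 207 in TBZ, so that the groups overlap (log2 fold change 0.06, edgeR adjusted p = 0.758). When the reads of every non-member gene that shares a 150-base window of sequence with Rps10 were added to it, the log2 fold change of Rps10 was 0.05 (edgeR adjusted p = 0.836). Rps10-ps2 holds nearly all of that sum, so its value is that of the copy and does not bear on the sign in the reads counted to Rps10.

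The coding bases of Rps10 are shared with another annotated gene. In GENCODE M21, 92.1% of them are also exon of the readthrough gene RPS10-NUDT3 on the same strand, which held 0 reads in all libraries. The same holds for 3 other members: 97.5% of the coding bases of Rpl13a are overlapped by Gm45713, 95.3% of those of Rpl36al by Gm49383 and 83.4% of those of Rpl24 by Gm28037. Next came Rpl19 with 13.6%, overlapped by the short gene Gm27597. The readthrough genes of Rpl13a and Rpl24 held 0 reads and that of Rpl36al 1 read over all libraries.

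These 4 genes were also the lowest of all tested members per length of mRNA. Rpl36al stood at 1.91 CPM per kilobase of mRNA, Rpl24 at 2.31, Rps10 at 8.89 and Rpl13a at 50.5, while the other 74 tested members ran from 178 to 2508. Rpl24, a protein at the interface of the subunits, measured 1.84, 1.20 and 1.70 CPM in control and 2.03, 1.01 and 1.63 in TBZ. Rpl36al measured 0.92, 0.83 and 1.10 CPM in control and 1.14, 0.96 and 1.09 in TBZ. For both the groups overlap, and their wide intervals, from -0.65 to 0.61 for Rpl24 and from -0.33 to 0.67 for Rpl36al, go with 41 to 86 and 39 to 46 reads a library. Whether the overlap sets these low counts was not tested. Without the 4 genes the members' median log2 fold change was 0.01, with 43 of 74 above 0.

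**Figure D3:**
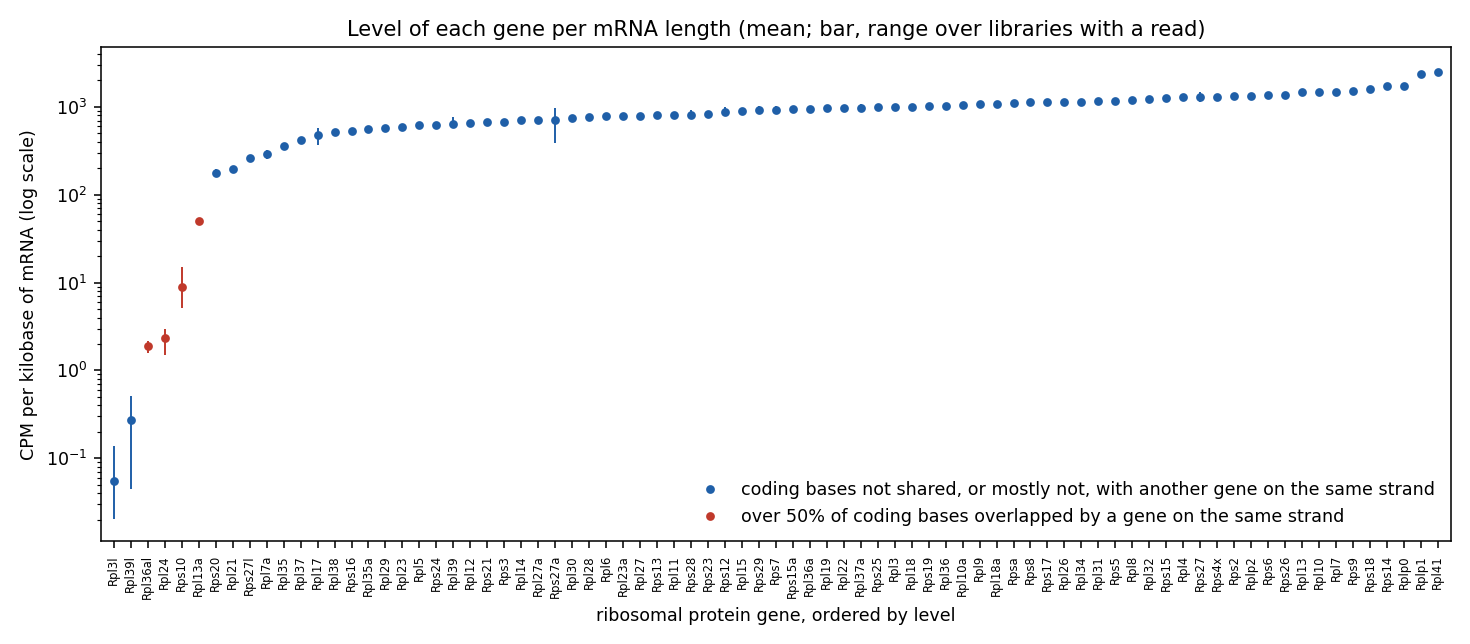
Level of members with a read, in CPM per kilobase of GENCODE M21 mRNA on a log scale (y axis), ordered by level along the x axis; points are means over 6 libraries and bars run from the lowest to the highest library with a read. The 4 genes with over 50% of their coding bases overlapped on the same strand (red) lie between 1.91 and 50.5, below the other tested members shown.

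Rpl17 and Rps27a varied at high counts. Rpl17 measured 305, 370 and 385 CPM in control and 412, 283 and 448 in TBZ, and its processed pseudogene Rpl17-ps10 on chromosome 7 measured 275, 163 and 157 in control and 155, 269 and 160 in TBZ. The libraries low for Rpl17, control 1 and TBZ 2, are those high for the pseudogene, and the sum of both ran only from 533 to 608 CPM. Another copy, Rpl17-ps3, stayed between 191 and 210 CPM. With the reads of all sharing copies added, the log2 fold change of Rpl17 went from 0.11 to 0.05.

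Rps27a, which is made as a fusion to ubiquitin, measured 414, 381 and 615 CPM in control and 244, 617 and 462 in TBZ. The highest library was 2.53 times the lowest, and both groups hold high and low libraries. Its processed pseudogene Gm8430 measured 15.2, 20.8 and 6.51 CPM in control and 16.5, 8.17 and 13.2 in TBZ, lowest in the libraries where Rps27a was highest. Here the sum still ran from 261 to 625 CPM, so that adding the copy did not level it. The log2 fold change of Rps27a was -0.09 ± 0.29 (SE; edgeR adjusted p = 0.947).

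**Figure D4:**
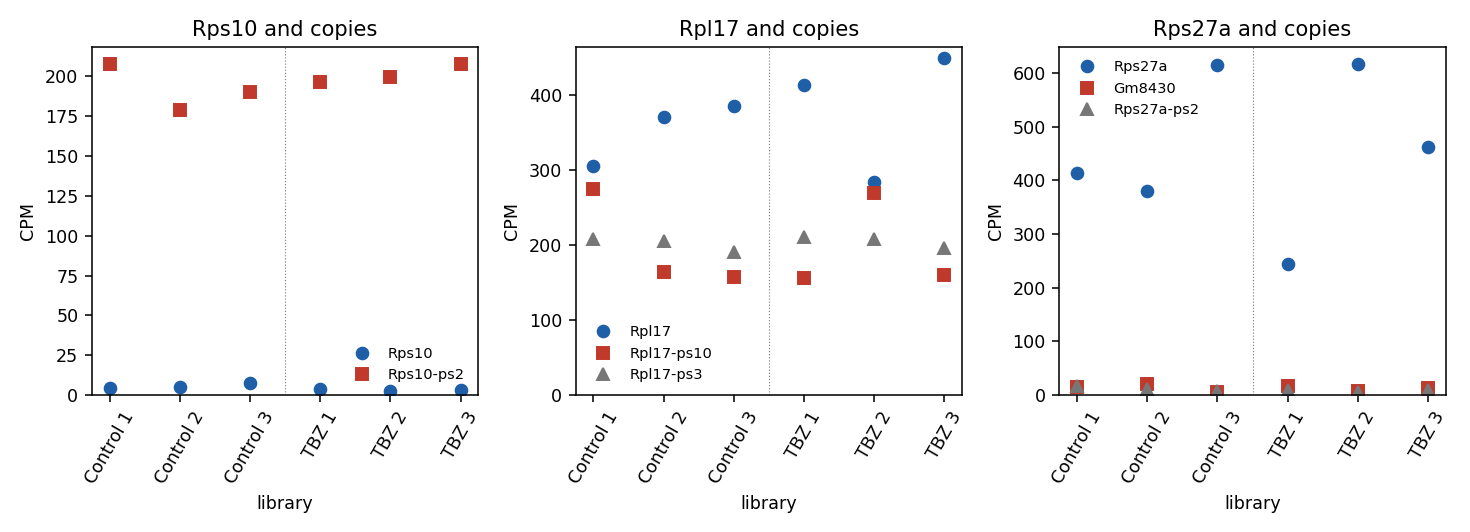
CPM (y axis, from 0) in each library (x axis) of Rps10, Rpl17 and Rps27a, in blue, and of pseudogenes that share sequence with them, in red and grey. Rps10 lies far below Rps10-ps2 in every library, and Rpl17 is low where Rpl17-ps10 is high.

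Shared sequence is common in the family: 68 of the 81 members share at least 1 window of 150 bases with another annotated gene, and 260 non-member genes hold such a window. These copies took 0.398 to 0.431% of all counts, and pseudogenes named after members 0.175 to 0.191%. Members with at least 20% of their windows shared had a median log2 fold change of 0.02 (12 genes), those with 5 to 20% a median of 0.01 (31 genes) and those with less a median of -0.003 (31 genes), leaving out the 4 overlapped genes. How the authors' counting placed reads that fit more than 1 locus is not given in the sources used here.

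Levels are compared between genes only per length. In the authors' deposited FPKM, which divide by the deposited gene length, Rplp1 was highest with 2373, ahead of Rplp0 with 1426, Rpl36 with 1026 and Rps15 with 998. For most members that length equals all exon bases of the gene in GENCODE M21. For Rpl17, Rps14, Rps18 and Rps28 it does not, with 775 deposited against 1327 exon bases in Rpl17. The deposited length was 2.38 times the mRNA length in the median of 75 members, and up to 9.80 times. Per kilobase of mRNA the order began with Rpl41 at 2508 CPM, Rplp1 at 2381, Rplp0 at 1747 and Rps14 at 1725. Among the 75 members at 10 CPM or more the ratio of the 90th to the 10th percentile was 4.89 per deposited length and 3.03 per mRNA length. The messages thus lay closer to each other on the mRNA scale than on that of the deposited length. Rps20, the lowest of the remaining 74 at 178, has an annotated mRNA of 3706 bases for a coding sequence of 357, and its level rests on that length.

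Tissue-restricted paralogues were nearly silent. Rpl10l, a testis gene that stands in for the X-linked Rpl10, had 0 reads in all 6 libraries. Rpl3l, known from skeletal and heart muscle, had 20 reads in all and Rpl39l, known from testis, 38. None of the 3 passed the filter. Of 7 pairs of paralogue and parent gene, 4 had enough reads for a ratio in each library. The log2 ratio of Rps27l to Rps27 was -1.54, -1.48 and -1.38 in control and -1.37, -1.42 and -1.28 in TBZ, with overlap between the groups. That of Rpl22l1 to Rpl22 averaged -2.01 ± 0.0778 in control and -1.96 ± 0.0400 in TBZ (SD, n = 3), and that of the transcribed pseudogene Rps4l to Rps4x -3.64 ± 0.0875 and -3.60 ± 0.0596. The ratio of Rpl36al to Rpl36a, at -8.62 ± 0.203 and -8.46 ± 0.119, uses the overlapped gene. In the 4 two-sided exact permutation tests p ran from 0.2 to 0.5 (adjusted p = 0.5 in each), where 0.1 is the smallest p that 3 against 3 libraries allow.

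Some ribosomal proteins have other names. All 6 measured genes of that list lay above 0 with a median log2 fold change of 0.04, and none passed the edgeR threshold. Rps27rt, a copy of Rps27, measured 70.6, 77.6 and 58.1 CPM in control and 73.8, 71.6 and 97.8 in TBZ, with overlap. Rps3a1, which encodes a core protein of the small subunit, was at 0.03 ± 0.03 (SE; edgeR adjusted p = 0.851).

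The messages of the wider translation apparatus were measured with the same test, and none of the genes in the lists that follow passed it. Of 19 translation factors whose mRNAs carry the TOP start, 14 lay above 0 with a median log2 fold change of 0.02. Btf3, of the nascent polypeptide complex, was at 0.08 ± 0.04 and the initiation factor Eif4b at 0.07 ± 0.04 (SE). Of 30 other initiation factors 25 lay above 0 with a median of 0.03, and in 8 of them all TBZ libraries lay above all controls, beside 8.47% of all tested genes and 301 of the 2478 other genes at 100 CPM or more. Among the 8 are Eif3j1, with 102, 104 and 99.5 CPM in control and 113, 109 and 104 in TBZ, and Eif3a, with 555, 577 and 526 in control and 586, 579 and 593 in TBZ. With library totals as the scale, the medians of both lists were lower, at -0.0002 and 0.01.

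Upstream of the ribosome, 20 of 42 assembly factors lay above 0 with a median of -0.005. Nop16 of the nucleolus was at 0.08 ± 0.04 and Utp15 of the small-subunit processome at -0.08 ± 0.05 (SE). Of 20 genes of the RNA polymerase I machinery, which transcribes rRNA, 9 lay above 0 with a median of -0.01. The medians of both lists turned positive when single libraries were left out, control library 3 among them (0.03 and 0.009). Taf1a, of its selectivity factor, was at 0.19 ± 0.08 and the subunit Polr1c at -0.10 ± 0.05. Of 19 regulators of TOP messages and mTORC1, 12 lay above 0 with a median of 0.02. Myc, which drives ribosome production, measured 63.1, 63.4 and 69.6 CPM in control and 72.7, 75.4 and 73.6 in TBZ (log2 fold change 0.18 ± 0.05 SE; edgeR adjusted p = 0.267), and its groups do not overlap. The related Mycn measured 54.5, 50.01 and 54.6 CPM in control and 43.3, 50.7 and 46.2 in TBZ, with overlap (log2 fold change -0.18 ± 0.07 SE; edgeR adjusted p = 0.414). Deptor, an mTOR-binding inhibitor, measured 51.6, 48.2 and 39.3 CPM in control and 53.7, 54.5 and 58.8 in TBZ (edgeR adjusted p = 0.391). Of 20 proliferation genes 11 lay above 0 with a median of 0.002. Rrm2 was at -0.13 ± 0.06 and Bub1 at -0.08 ± 0.05 (SE).

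Members with and without the start run had close medians. The 13 members with the run in the RefSeq table had a median log2 fold change of 0.006, and the 45 tested members without it a median of 0.003. The 391 short protein-coding genes outside the family, of at most 1000 deposited bases, had a median of 0.005. Of these 391, 5 rose, beside 28 of all 18226 tested genes. Most members have a longer deposited length than this limit. The median interval of the short genes reached 0.36 to each side, against 0.10 for members. They are thus not matched to the members and do not speak to message length.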

How the data were processed

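Poly(A)-selected libraries of 3 control and 3 TBZ samples were sequenced as paired ends, per the labels' protocols. STAR, HTSeq and the mm10 build are named in the submitters' processing notes, and versions, strand setting and annotation are not given in the sources used here. The deposited table holds raw counts per gene, the authors' FPKM, and the authors' log2 fold changes and adjusted p-values. Each deposited FPKM equals the count over the deposited gene length and the library total, with a factor per library of 0.991 to 1.02. The main test was edgeR 4.0.16 (TMM, filterByExpr, quasi-likelihood) on all genes in R 4.3.3, with Benjamini-Hochberg adjustment over 18226 genes. CPM are TMM-scaled. Intervals are 95%. DESeq2 1.42.0 and limma 3.58.1 on log2(FPKM + 0.5), or + 1, were alternatives, beside other scalings, no filter, a replicate block and each library left out. Overlaps, windows of 150 bases and mRNA lengths came from GENCODE M21 on mm10, whose exon lengths differ from the deposited lengths for some members. mRNA length is that of the shortest coding transcript whose coding sequence is at least that of the principal transcript, a rule settled after lengths were seen. Starts came from RefSeq (GRCm38.p6).

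The members and lists were chosen with earlier results of these data known. Members named were those of central roles, the 4 highest and 4 lowest by fold change and by FPKM, and those whose groups do not overlap, and from each list the 2 with the smallest p. Some genes that this rule names are not reported here, by name or in the plots that label each gene. Mycn, Rpl13a, Rpl19, Rpl41, Rps20, Rps27a, Rps3a1, the pseudogenes and the letters searched were chosen after values or sequences were seen. A table of protein sequences was not used here.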

Additional observations from a re-analysis of the deposited data

How the results depend on the processing

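The count of called members was 0 in 14 of 16 alternatives and 1 (Rps10) with DESeq2 and without the filter. Over the genome the 34 calls became 222 with DESeq2, 445 without the filter, 13, 4 and 0 with limma (pseudocount 0.5, 1, and 0.5 over all genes), and 5 to 36 with each library left out. With the replicate block 5 genes were called and 0 members. Deviations of libraries of the same number had correlations of 0.002, -0.153 and -0.077. Those of unlike numbers ran from -0.088 to 0.148. With 3 libraries a group, these values cannot tell whether the numbers pair the libraries. With library totals the median of TOP translation factors was -0.000151 and that of other initiation factors 0.0105. With each library left out, list medians ran from 0.0253 to 0.0698 for ribosomal proteins outside the naming rule (highest without control replicate 1) and from 0.0267 to 0.0457 for other initiation factors (highest without control replicate 3). They ran from -0.0223 to 0.0263 for assembly factors (highest without control replicate 3) and from -0.0234 to 0.0161 for the polymerase I machinery (highest without control replicate 2). The causes were not tested. Of 496 fits of the 31 named tested members in the alternatives, 494 missed the threshold and 31 changed sign, and 15 members kept their sign in all of them. With 3 libraries a group the median member's interval reached 0.10 to each side on the log2 scale, so smaller changes could not be resolved.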
